A study of Mus musculus with 2 samples.

Results

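The nuclear factor I transcription factor genes Nfia, Nfib, Nfic and Nfix and the zinc finger gene Zbtb20 were followed through the cell classes of the embryonic mouse cortex. These 5 genes were found by symbol among the 32285 genes of the count tables, each in a single row. Their levels are given in CPM, the unique molecular identifiers (UMIs, 1 per captured mRNA molecule) of a gene per 1e+06 UMIs. They were chosen by name, with earlier results of these data known, and none of them served as a marker of a cell class. Counts of these genes that passed a test are therefore descriptions. Single-cell RNA sequencing had been carried out on dissociated dorsal telencephalon, the embryonic region that forms the cerebral cortex, taken at embryonic day 16.5 (E16.5). Both libraries described here, WT replicate 1 and WT replicate 6, carry the genotype label WT and form 1 group. The series also concerns conditional knockout embryos named Emx1Dot cKO, which were not analysed here, so that no genotypes were compared. The labels do not say whether the WT samples carried unrecombined floxed alleles or a Cre transgene, nor whether the 2 libraries came from separate embryos, name no strain, and give the tissue only as brain hemispheres.

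Nuclear factor I proteins bind DNA as dimers over palindromes of the half-site TTGGC, and they can raise or lower transcription. In the cortex they are known to move radial glial cells (RGCs) out of self-renewal, towards intermediate progenitor cells (IPCs) and later towards astrocytes, and mice without Nfia, Nfib or Nfix have defects of the corpus callosum and the hippocampus. Zbtb20 encodes a transcriptional repressor that is known for its roles in hippocampal pyramidal neurons and in the making of astrocytes.

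Promoter sequences of 4 of the 5 genes, 7 promoters in all, were held in the RefSeq-derived promoter table of build GRCm38.p6, the assembly that mm10 names. The table gave no entry for Nfib. Each sequence runs from 250 bases before to 50 bases after an annotated transcription start. Which start was in use in these cells was not tested. The promoters of Nfia and Zbtb20 are shown because both transcripts fell from IPCs to newborn neurons and again from newborn to upper-layer neurons, and 1 Nfix promoter is shown because it held the half-site 2 times. Capitals mark TTGGC or its reverse complement GCCAA, which do not overlap.
Nfia, chr4:97581693-97581992, + strand: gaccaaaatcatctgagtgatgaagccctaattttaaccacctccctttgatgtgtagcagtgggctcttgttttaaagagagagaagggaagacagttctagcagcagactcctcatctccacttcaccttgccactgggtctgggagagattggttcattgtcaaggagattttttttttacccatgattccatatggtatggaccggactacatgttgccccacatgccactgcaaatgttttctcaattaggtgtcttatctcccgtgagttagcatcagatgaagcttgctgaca
Zbtb20, chr16:43247034-43247333, + strand: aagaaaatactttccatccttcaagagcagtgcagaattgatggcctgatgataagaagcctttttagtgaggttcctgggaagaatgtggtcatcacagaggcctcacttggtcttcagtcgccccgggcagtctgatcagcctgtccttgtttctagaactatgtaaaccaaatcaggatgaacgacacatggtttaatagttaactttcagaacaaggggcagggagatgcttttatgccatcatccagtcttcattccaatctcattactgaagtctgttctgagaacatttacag
Nfix, chr8:84772826-84773125, - strand: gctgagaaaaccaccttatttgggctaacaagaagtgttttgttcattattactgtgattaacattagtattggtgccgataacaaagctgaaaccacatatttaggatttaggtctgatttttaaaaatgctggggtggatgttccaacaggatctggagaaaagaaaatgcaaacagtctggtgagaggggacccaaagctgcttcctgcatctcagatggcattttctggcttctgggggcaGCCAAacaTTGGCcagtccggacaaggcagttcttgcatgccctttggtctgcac

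Neither the Nfia nor the Zbtb20 window held the half-site on either strand, and neither did the Nfic window. The Nfix window shown held 2, GCCAA and then TTGGC, separated by 3 bases, and 2 of the other Nfix windows held 1 each. Whether any of these is bound was not tested, and their order and spacing were not compared with those of a site bound by a dimer. Of all 32851 promoters in the table, 46.7% held at least 1 half-site and 14.1% held 2 or more. The Nfia window had 2 CG dinucleotides, the Zbtb20 window 3 and the Nfic window 24, against a median of 7.0 over the table.

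WT replicate 1 held 14136 cells and WT replicate 6 held 13046, and 59 cell barcodes occurred in both. After filtering, 7219 and 7352 cells were used, with median depths of 6521 and 6330 UMIs. Cells were placed in 9 gates that do not overlap, by the number of marker genes with a UMI. Together the gates took 5607 cells, or 38.5% of those used, so that cells outside the gates are not described. They held 587 radial glia, 472 intermediate progenitors, 818 newborn, 1837 upper-layer, 163 layer 6 and 221 layer 5 excitatory neurons, 906 interneurons of the medial ganglionic eminence (MGE), 538 of the caudal ganglionic eminence (CGE) and 65 oligodendrocyte precursors. Each gate's own marker list had its highest mean summed level in that gate, although the layer 5 list separated layer 5 neurons (1516 and 1769 CPM) little from layer 6 neurons (1532 and 1411 CPM). The IPC gate also carried 4331 and 3935 CPM of the newborn-neuron list, against 5082 and 5488 CPM in newborn neurons. Levels below are UMIs summed over a gate in 1 library, in CPM, with WT replicate 1 named first. Tests used edgeR's quasi-likelihood test on these sums with Benjamini-Hochberg adjustment over all genes tested, and a gene passed at an adjusted p under 0.05. The SDs and p-values measure the spread between these 2 libraries only, which may be technical.

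Each gene had its own order of cell classes. Nfia was highest in IPCs (1494 CPM ± 36.2, SD, n = 2 libraries) and RGCs (1433 ± 7.80), followed by layer 6 neurons (1085 ± 66.9) and oligodendrocyte precursors (1051 ± 303), whose library ranges overlapped. Newborn neurons came next with 714 ± 56.5. CGE interneurons (523 ± 2.97) and layer 5 neurons (471 ± 88.8) overlapped as well, upper-layer neurons had 352 ± 27.4, and MGE interneurons were lowest with 104 ± 12.4. The highest class mean was 14.4 times the lowest. That lowest level lay under the 168 and 171 CPM of microglia, the reference for free RNA used below.

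Nfib was highest in newborn neurons (3071 CPM ± 155, SD, n = 2 libraries) and IPCs (2905 ± 176), which overlapped. Below them the ranges of neighbouring classes stood apart: layer 6 neurons had 2510 ± 51.4, CGE interneurons 2151 ± 21.4, layer 5 neurons 1702 ± 74.4, upper-layer neurons 1588 ± 54.7 and RGCs 1470 ± 92.3. Oligodendrocyte precursors had 737 ± 29.4 and MGE interneurons 524 ± 29.7. The range from highest to lowest was 5.86-fold.

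Nfix was highest in IPCs and excitatory neurons. IPCs (1023 CPM ± 22.5, SD, n = 2 libraries) and newborn neurons (992 ± 115) overlapped at the top, and layer 5, upper-layer and layer 6 neurons followed at 875 ± 40.2, 832 ± 36.0 and 805 ± 25.4, each overlapping the next. RGCs had 365 ± 11.2 and CGE interneurons 315 ± 40.3. Oligodendrocyte precursors (97.3 ± 15.8) and MGE interneurons (81.1 ± 15.2) overlapped at the bottom, 12.6-fold below IPCs at the lowest. The MGE values also overlapped those of microglia.

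Nfic had few UMIs everywhere. RGCs stood apart at 49.3 CPM ± 5.83 (SD, n = 2 libraries), and from IPCs at 25.6 ± 3.94 down to oligodendrocyte precursors at 16.7 ± 2.65 every class overlapped the next. CGE interneurons were lowest at 10.4 ± 5.34. Microglia, used below as the reference for free RNA, had 75.0 and 47.7 CPM, which overlapped RGCs and lay above the other 8 classes. Whether these microglial UMIs were free RNA or the cells' own was not tested. Nfic in the other 8 classes is therefore read neither as expression nor as its absence. Its differences between them are not read as differences in expression. Over all cells used, Nfic had 2805 UMIs, against 69294 for Nfia, 173091 for Nfib, 60980 for Nfix and 109193 for Zbtb20, which sets the precision with which each can be followed.

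Zbtb20 was highest in progenitors. RGCs had 2372 CPM ± 17.3 (SD, n = 2 libraries) and IPCs 2133 ± 154, with ranges that stood apart. CGE interneurons had 1031 ± 57.7 and MGE interneurons 902 ± 71.4, and the MGE values overlapped newborn neurons (794 ± 92.8). The difference between MGE and CGE interneurons did not pass. Its sign turned without cells that carried genes of the lateral ganglionic eminence, as given below. Layer 5 neurons (659 ± 68.5) and oligodendrocyte precursors (623 ± 69.3) overlapped, and layer 6 (271 ± 61.4) and upper-layer neurons (156 ± 4.16) were lowest, in an order between them that turned when each gate needed 1 more marker. The highest class mean was 15.2 times the lowest, which lay under the level of microglia and is not told apart from free RNA.

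**Figure D1:**
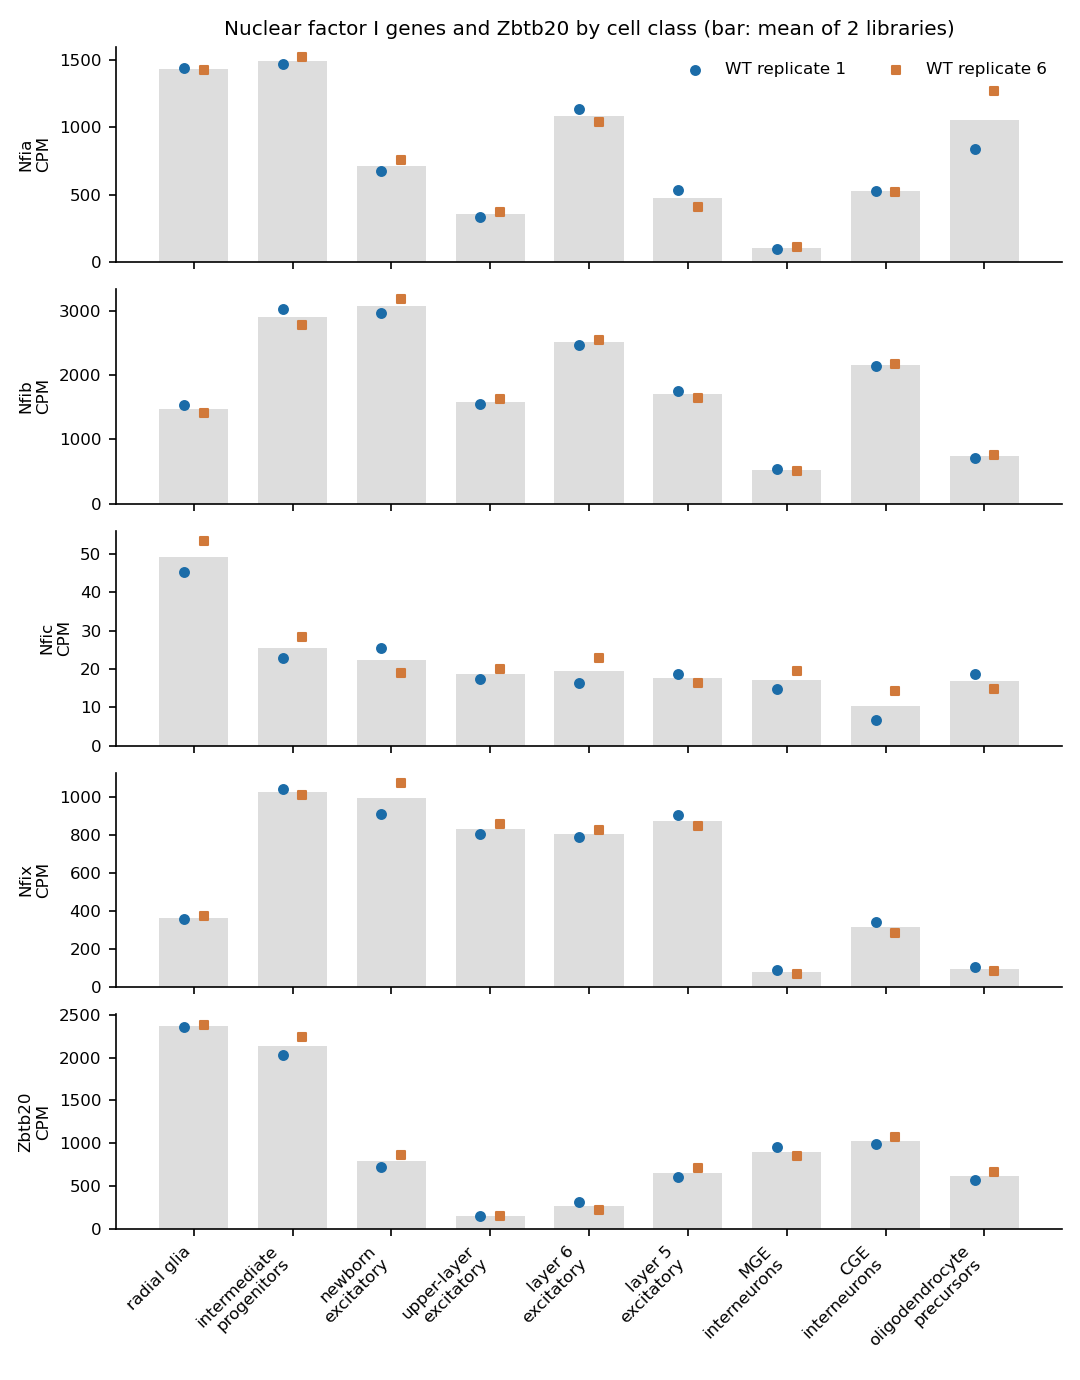
Level of each gene in CPM (vertical axes, starting at 0 and scaled per gene) in the 9 cell classes (horizontal axis), where grey bars are the mean of 2 libraries, blue circles WT replicate 1 and orange squares WT replicate 6. Nfia is lowest in MGE interneurons, Zbtb20 in layer 6 and upper-layer neurons, whose order turns when each gate needs 1 more marker, and Nfix is under 400 CPM in both libraries outside IPCs and excitatory neurons.

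Between RGCs, the stem cells of the ventricular zone, and IPCs, their neuron-producing daughters, Nfib and Nfix rose and Nfic fell. Nfix had 357 and 373 CPM in RGCs and 1039 and 1007 CPM in IPCs. It was 2.995-fold lower in RGCs (log2 difference of RGCs minus IPCs -1.58 ± 0.11, SE, adjusted p = 2.70e-06). Nfib had 1536 and 1405 CPM in RGCs against 3029 and 2780 CPM, a 2.11-fold difference (-1.08 ± 0.11, adjusted p = 2.55e-05). In both genes the IPC values of both libraries lay above both RGC values. Nfic, at 45.2 and 53.5 CPM in RGCs and 22.8 and 28.4 CPM in IPCs, was 1.79-fold higher in RGCs (0.84 ± 0.18, adjusted p = 0.00326), against an IPC level under that of microglia.

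Nfia and Zbtb20, by contrast, did not pass the test between the progenitor classes. Nfia had 1438 and 1427 CPM in RGCs and 1469 and 1520 CPM in IPCs (log2 difference -0.16 ± 0.10, adjusted p = 0.242). With the library as a block this difference kept its size (-0.16) and passed (adjusted p = 0.0199). Zbtb20 had 2360 and 2384 CPM in RGCs and 2025 and 2242 CPM in IPCs (0.06 ± 0.10, adjusted p = 0.656). Thus 3 of 5 genes passed in a comparison where 46.8% of 12016 genes did, 24.9% higher and 21.9% lower in RGCs, so that passing is not particular to them. Choroid plexus markers summed to 2654 CPM in the RGCs of WT replicate 1 and to 4.63 CPM in those of WT replicate 6. A single cell with 6662 UMIs of the choroid plexus transcript Ttr carried them, and the next cell had 3. Leaving out the 3 RGCs with 2 or more choroid plexus markers gave log2 differences of -1.57 for Nfix, -1.07 for Nfib and 0.84 for Nfic, and changed no call.

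From IPCs to newborn neurons, which have left the cell cycle and migrate towards the cortical plate, Nfia and Zbtb20 fell. Nfia had 674 and 754 CPM in newborn neurons against the IPC levels above, a 2.003-fold drop (log2 difference -1.002 ± 0.09, SE, adjusted p = 2.42e-05). Zbtb20 had 728 and 860 CPM, a 2.57-fold drop (-1.36 ± 0.10, adjusted p = 5.77e-06). For both genes the newborn values of either library lay below all IPC values.

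The other genes did not pass. Nfib had 2961 and 3181 CPM in newborn neurons (0.14 ± 0.09, adjusted p = 0.286), Nfix 910 and 1073 CPM (0.02 ± 0.10, adjusted p = 0.931) and Nfic 25.6 and 18.9 CPM (-0.15 ± 0.21, adjusted p = 0.661). Nfib passed with the library as a block (0.14, adjusted p = 0.00896), and where each gate needed 1 more marker (0.56, adjusted p = 0.00153). The count of 2 of 5 stood against 28.9% of 11590 genes tested, 13.9% higher and 15.0% lower in newborn neurons. The newborn-neuron markers already present in the IPC gate, given above, make the classes less distinct than their names, and their part in these values was not tested.

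Upper-layer neurons, the last-born excitatory neurons that project within the cortex, carried less Zbtb20, Nfia and Nfib than newborn neurons. Zbtb20 had 153 and 159 CPM there, 4.94-fold below newborn neurons (log2 difference -2.31 ± 0.10, SE, adjusted p = 1.64e-06). That level lay under that of microglia, so the size of this fold rests on a level not told apart from free RNA. Nfia had 333 and 372 CPM (1.97-fold lower, -0.98 ± 0.09, adjusted p = 8.83e-05) and Nfib 1549 and 1626 CPM (1.88-fold lower, -0.91 ± 0.07, adjusted p = 3.50e-05). No library range of these genes overlapped between the classes, and the within-library differences of Zbtb20 were -2.20 and -2.41.

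Nfix had 806 and 857 CPM in upper-layer neurons and did not pass (-0.21 ± 0.09, adjusted p = 0.152). It passed with the library as a block (-0.21, adjusted p = 0.0195) and with 1 more marker per gate (-0.47, adjusted p = 0.00518). Nfic had 17.3 and 20.1 CPM (-0.20 ± 0.17, adjusted p = 0.486). These 3 of 5 genes compare with 17.0% of 12682 genes that passed, 8.93% higher and 8.03% lower in upper-layer neurons. Along the excitatory lineage, from RGCs to upper-layer neurons, Zbtb20 and Nfia thus went down at 2 successive steps, whereas Nfib and Nfix went up at the first and Nfib down at the last.

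Among excitatory neurons of the cortical plate, layer 6 neurons, many of which project to the thalamus, stood out by Nfia and Nfib. Nfia had 1132 and 1038 CPM in layer 6 neurons, 3.06-fold above upper-layer neurons (log2 difference 1.61 ± 0.10, SE, adjusted p = 3.23e-06). Against layer 5 neurons, many of which project below the cortex, and where it had 534 and 408 CPM, Nfia was 2.33-fold higher (1.22 ± 0.16, adjusted p = 0.000637). Nfib had 2474 and 2547 CPM in layer 6 neurons, 1.57-fold above upper-layer neurons (0.65 ± 0.08, adjusted p = 0.000331).

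Compared with layer 5 neurons (1754 and 1649 CPM), Nfib was 1.496-fold higher in layer 6 (0.58 ± 0.12, adjusted p = 0.0118). That call was lost with DESeq2 (0.59, adjusted p = 0.0931) and with the stricter limits on cell depth and mitochondrial UMIs (0.56, adjusted p = 0.0583). Nfix had 787 and 823 CPM in layer 6, 903 and 847 CPM in layer 5 and no passing difference in either comparison (-0.06 ± 0.09, adjusted p = 0.745, against upper-layer neurons and -0.10 ± 0.13, adjusted p = 0.790, against layer 5). Nfic did not pass either, with 16.2 and 22.9 CPM in layer 6 and 18.7 and 16.3 CPM in layer 5. In each comparison 3 of 5 genes passed, against 14.0% of 12467 genes between layer 6 and upper-layer neurons (8.39% higher and 5.61% lower in layer 6) and 3.85% of 9064 genes between layer 6 and layer 5 (2.76% higher and 1.09% lower). With the library as a block 865 genes passed between layer 6 and layer 5, against 349 without it.

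Zbtb20 differed among the layers but unevenly over cells. It had 314 and 228 CPM in layer 6 neurons, and the log2 difference from upper-layer neurons of 0.78 ± 0.14 (SE, adjusted p = 0.00450) turned to -0.50 (adjusted p = 0.0811) when each gate needed 1 more marker, which left 38 and 49 layer 6 cells. No direction between these classes is therefore given. Layer 5 neurons had 610 and 707 CPM, 2.40-fold above layer 6 (layer 6 minus layer 5 -1.26 ± 0.18, adjusted p = 0.000988). In layer 5 the median cell of the libraries had 137 and 149 CPM of Zbtb20, while the 90th percentile was 2132 and 3258 CPM. No Zbtb20 UMI was found in 44.5% and 37.6% of the layer 5 cells, nor in 51.4% and 63.7% of the layer 6 cells.

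A list of 5 hippocampal markers summed to 205 and 198 CPM in layer 5 neurons, 81.2 and 87.7 CPM in layer 6 neurons and 260.1 and 270.4 CPM in upper-layer neurons, and its marker Wfs1 was at 0 in both deep-layer gates.

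Interneurons migrate into the cortex from the ganglionic eminences, and the MGE and CGE gates differed widely in 3 nuclear factor I genes. The gate names rest on markers, and origin was not traced. Most cells of the CGE gate also carried genes of another eminence, as given below. Nfia had 95.3 and 113 CPM in MGE interneurons and 525 and 521 CPM in CGE interneurons, a 5.001-fold difference (log2 difference of MGE minus CGE -2.32 ± 0.13, SE, adjusted p = 1.76e-07). Nfib had 545 and 503 CPM against 2135 and 2166 CPM, 4.08-fold (-2.03 ± 0.11, adjusted p = 1.60e-07). Nfix had 91.9 and 70.3 CPM against 344 and 287 CPM, 3.86-fold (-1.95 ± 0.15, adjusted p = 3.07e-06). All CGE values lay above all MGE values. The MGE level of Nfia lay below its 168 and 171 CPM in microglia, and that of Nfix overlapped its 63.8 and 88.7 CPM there, so that the sizes of these 2 folds rest on levels not told apart from free RNA.

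Zbtb20 did not pass, with 952 and 851 CPM in MGE and 990 and 1071 CPM in CGE interneurons (-0.19 ± 0.12, adjusted p = 0.433). With the library as a block it passed (-0.19, adjusted p = 0.0280), in a fit in which 1653 genes passed in place of 957. Nfic had 14.7 and 19.4 CPM against 6.59 and 14.1 CPM (0.70 ± 0.37, adjusted p = 0.338). The 3 of 5 genes that passed compare with 9.03% of 10595 genes tested, 4.71% higher and 4.32% lower in MGE interneurons. The median absolute log2 difference was 1.95 over the 5 genes and 0.23 over all genes.

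The CGE gate also carried genes of another eminence. Tshz1, Pbx3, Meis2, Foxp2 and Six3, which are expressed by neurons of the lateral ganglionic eminence (LGE), summed to 5079 and 5494 CPM in it and to 719 and 526 CPM in MGE interneurons. Meis2 alone had 2180 and 2290 CPM against 344 and 197 CPM, and none of the 5 was at 0 in either gate. At least 2 of them had a UMI in 156 of 251 and 183 of 287 CGE cells, and in 76 of 447 and 67 of 459 MGE cells. This list was chosen after the gates had been seen. It also summed to 3561 and 3304 CPM in IPCs and to 3010 and 2646 CPM in newborn excitatory neurons. Its genes therefore do not by themselves assign a cell to the LGE.

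Without those cells, which left 95 and 104 CGE and 371 and 392 MGE cells, the nuclear factor I contrast was larger. The median depth of the CGE cells went from 4536 and 3982 to 3523 and 3029.5 UMIs, and its part was not tested. Nfia was at 702 and 753 CPM, Nfib at 2664 and 2784 CPM and Nfix at 453 and 463 CPM in the remaining CGE interneurons, and the log2 differences were -2.86, -2.46 and -2.55 (adjusted p = 5.86e-06, 9.08e-06 and 7.66e-06). Zbtb20 went the other way, to 705 and 704 CPM in CGE and 908 and 788 CPM in MGE interneurons. Its difference changed sign, from -0.19 to 0.28, and passed in neither (adjusted p = 0.423). Globin transcripts of red blood cells summed to 4358 and 10826 CPM in MGE and to 2672 and 11331 CPM in CGE interneurons. They thus differed more between libraries than between these gates, and their part was not tested.

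**Figure D2:**
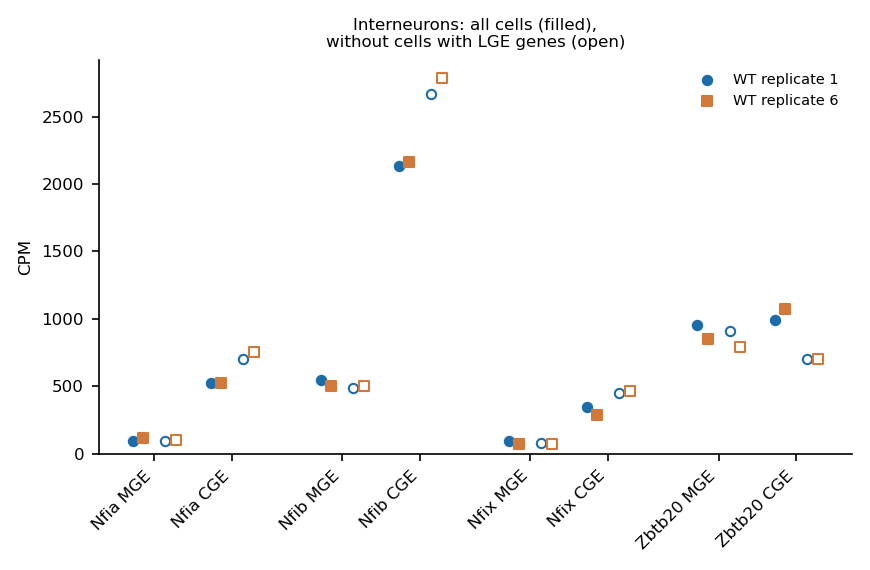
CPM (vertical axis from 0) of Nfia, Nfib, Nfix and Zbtb20 in MGE and CGE interneurons, with all cells of a gate (filled symbols) and without cells that had a UMI of 2 or more LGE genes (open symbols), where blue circles are WT replicate 1 and orange squares WT replicate 6. Without those cells Nfia, Nfib and Nfix are higher and Zbtb20 is lower in CGE interneurons.

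The MGE interneurons were also divided by somatostatin (Sst), which marks a large class of them. Cells with an Sst UMI (99 and 87 cells) had 544 and 550 CPM of Nfib, and those without (348 and 372 cells) had 545 and 489 CPM. Zbtb20 was at 887 and 795 CPM with Sst and at 974 and 867 CPM without. For both genes the ranges overlapped. These values are a description, since Sst was itself a gate marker.

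Inhibitory and excitatory neurons differed in opposite directions for Zbtb20 and for Nfia, Nfib and Nfix. Summed over both gates, interneurons carried 4.08-fold more Zbtb20 than layer 6, layer 5 and upper-layer neurons together (log2 difference 2.03 ± 0.08, SE, adjusted p = 1.48e-07), with within-library differences of 1.999 and 2.06. Nfix was 5.12-fold lower (-2.36 ± 0.10, adjusted p = 1.86e-07), Nfia 1.66-fold lower (-0.73 ± 0.08, adjusted p = 0.000127) and Nfib 1.52-fold lower (-0.60 ± 0.07, adjusted p = 0.000163). Nfic did not pass (-0.44 ± 0.19, adjusted p = 0.0957), although it did with the library as a block (-0.44, adjusted p = 0.0374).

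Such sums hide the MGE and CGE gates and the layers. Upper-layer neurons made up most of the excitatory sum, with 1837 cells against 163 of layer 6 and 221 of layer 5. Their mean Zbtb20 of 156 CPM lay under the level of microglia. The mean was 271 CPM in layer 6 and 659 CPM in layer 5 neurons, against 902 CPM in MGE and 1031 CPM in CGE interneurons. For Nfib, CGE interneurons had more than upper-layer and layer 5 neurons while MGE interneurons had less than any excitatory class. Nfia was likewise higher in CGE interneurons (525 and 521 CPM) than in upper-layer neurons (333 and 372 CPM). The count of 4 of 5 genes compares with 43.1% of 13837 genes that passed, 21.5% higher and 21.6% lower in interneurons. Without the cells that carried LGE genes the values were 1.82 for Zbtb20, -2.52 for Nfix, -0.98 for Nfia and -0.91 for Nfib, and all 4 still passed.

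Oligodendrocyte precursors, which give rise to the myelin-forming cells, had less of 4 genes than RGCs. Zbtb20 had 573 and 672 CPM, 3.58-fold below RGCs (log2 difference -1.84 ± 0.21, SE, adjusted p = 2.38e-05). Nfix had 108 and 86.2 CPM, 3.52-fold lower (-1.82 ± 0.21, adjusted p = 3.83e-05), and Nfib 716 and 758 CPM, 1.88-fold lower (-0.91 ± 0.20, adjusted p = 0.00655). Nfic rested on 6 and 5 UMIs, a level under that of microglia (-1.47 ± 0.37, adjusted p = 0.0143), and its call was lost with DESeq2 (-1.49, adjusted p = 0.113).

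Nfia was the exception. Its levels of 837 and 1266 CPM in oligodendrocyte precursors lay below the RGC levels in both libraries, but the libraries differed more from each other than in any other class (-0.36 ± 0.22, adjusted p = 0.336). It passed with all gates in a single fit (-0.49, adjusted p = 0.0386), in which the median over all genes moved from 0.01 to -0.13, and with 1 more marker per gate (-1.11, adjusted p = 0.00437), which left 25 and 24 precursors. The RGC marker list summed to 6101 CPM in the precursors of WT replicate 1 and to 9865 CPM in those of WT replicate 6, in the same order as Nfia, and its part was not tested. The 4 of 5 genes compare with 15.5% of 10832 genes tested, 7.92% higher and 7.53% lower in the precursors. The 65 cells of this gate limit all these values.

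Within RGCs, cells with at least 3 of 9 cell-cycle markers were compared with cells that had at most 1, in 292 and 221 cells. Zbtb20 had 2110 and 2047 CPM in cycling and 2686 and 2999 CPM in non-cycling RGCs, ranges that did not overlap. The difference of -0.44 ± 0.16 (SE) did not pass (adjusted p = 0.0871), but did with all gates in a single fit (-0.49, adjusted p = 0.0178) and with the stricter cell limits (-0.50, adjusted p = 0.0457). None of 5 genes passed with edgeR, where 16.8% of 10194 genes did, 8.75% higher and 8.05% lower in cycling cells. DESeq2 also called none. Only Zbtb20 had an unadjusted p under 0.05 (0.0187).

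The other log2 differences were 0.07 for Nfia, 0.22 for Nfib, 0.27 for Nfix and 0.42 for Nfic, none past the test (adjusted p = 0.825, 0.419, 0.280 and 0.330). Cycling RGCs were deeper, with medians of 10185 and 9341 UMIs against 4765 and 6101, whose part was not tested. The cell with the many Ttr UMIs was a non-cycling cell, in which class choroid plexus markers summed to 9398 CPM in WT replicate 1 and 2.93 CPM in WT replicate 6. Without such cells Zbtb20 came to -0.45 (adjusted p = 0.0590).

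**Figure D3:**
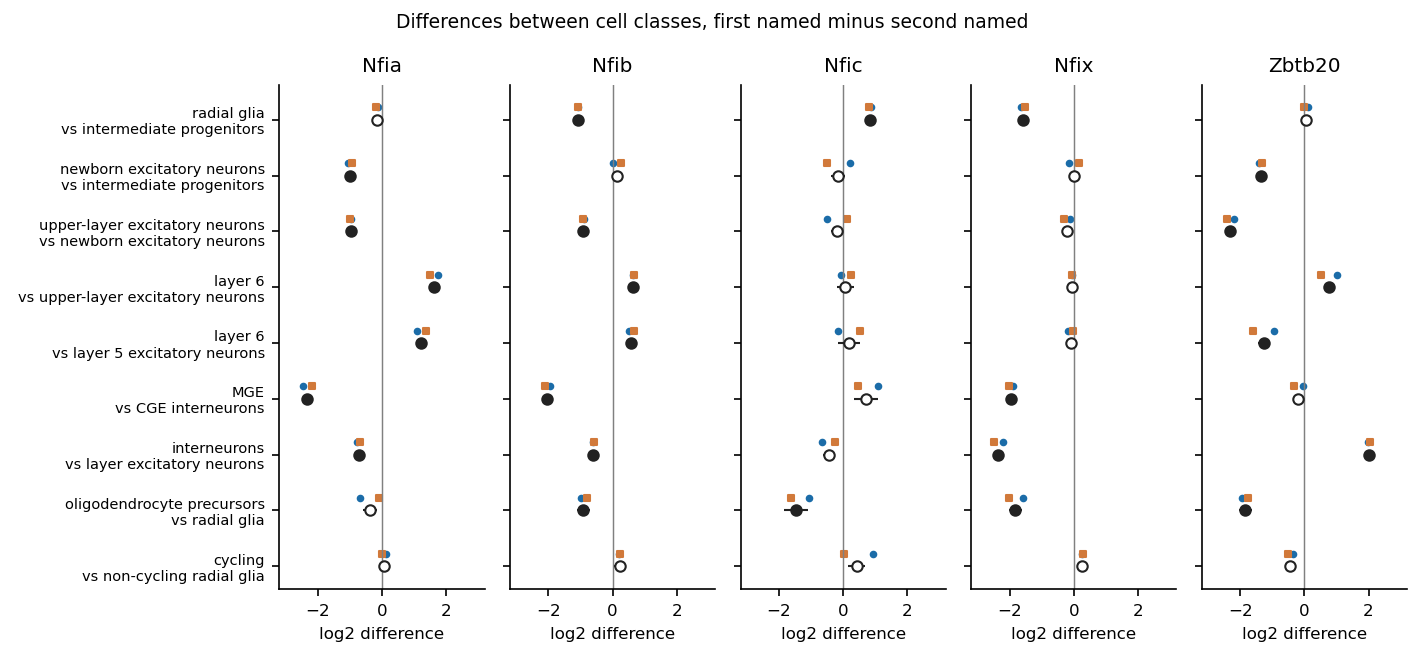
Log2 difference (horizontal axis, first-named class minus second) of each gene in the 9 comparisons, with large circles for the edgeR estimate and its SE, filled where the adjusted p was under 0.05 and open where it was not. Small blue circles and orange squares above them are the differences within WT replicate 1 and WT replicate 6; Nfia, Nfib and Nfix share the direction between MGE and CGE interneurons, while Zbtb20 and Nfix point opposite ways between interneurons and excitatory neurons.

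Over the 9 comparisons, which share gates with each other, 25 of 45 differences passed, and both libraries gave the direction of the estimate in each of the 25. With so few sums per class, a difference could hardly pass if its libraries pointed opposite ways, so this agreement is no further support. Of the 25, 22 passed in the same direction under every alternative setting with a test. The other 3 were Zbtb20 between layer 6 and upper-layer neurons, Nfib between layer 6 and layer 5, and Nfic in oligodendrocyte precursors.

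Detection per cell was compared after each cell had been thinned to 2000 UMIs, which left out 178 cells of the 9 gates. Nfib was detected in 98.0% ± 0.607 (SD, n = 2 libraries) of newborn neurons and in 91.3% ± 1.38 of CGE but only 42.4% ± 3.91 of MGE interneurons. Nfia was detected in 88.6% ± 1.33 of RGCs, 60.2% ± 3.91 of newborn and 40.6% ± 1.67 of upper-layer neurons. Zbtb20 was detected in 94.98% ± 0.674 of RGCs and 23.6% ± 0.355 of upper-layer neurons.

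Free RNA also gives UMIs, and microglia, the immune cells of the brain and of another lineage, served as the reference. Whether the microglial UMIs of these genes were free RNA or the cells' own was not tested. In microglia Nfia was detected in 21.7% ± 4.10, Nfib in 15.9% ± 2.05, Nfix in 9.42% ± 1.02, Nfic in 6.52% ± 1.02 and Zbtb20 in 26.1% ± 6.15 of cells at the same thinned depth. In MGE interneurons the shares were 14.2% ± 2.77 for Nfia and 12.6% ± 2.97 for Nfix. Nfia thus lay below the microglial share and is read there neither as expression nor as its absence. Nfix lay above its microglial share by little more than the SD of its own share. Nfic was detected in 11.8% ± 0.144 of RGCs and in every other class in a smaller share than in microglia. Upper-layer Zbtb20 lay no higher than the microglial share either, and at 244 and 285 CPM in microglia the level of Zbtb20 was in the range of layer 6 neurons. Before thinning, median depths were 4044 and 3670 UMIs in MGE interneurons, 9181 and 8396 in upper-layer neurons and 7801 and 7033 in microglia. Unthinned shares were 23.4% for Nfia and 21.3% for Nfix in MGE interneurons and 50.5% for Zbtb20 in upper-layer neurons, and in microglia 41.7%, 25.9% and 52.7%.

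At 2000 UMIs all 4 nuclear factor I genes were found together in few cells, from 0.0% of MGE interneurons to 4.34% of RGCs. For any 2 or more of them, 88.2% of RGCs, 93.7% of IPCs, 88.0% of newborn and 73.9% of upper-layer neurons had UMIs. The share was 58.9% in CGE interneurons and 15.6% in MGE interneurons. No nuclear factor I UMI was found in 46.8% of MGE interneurons, 5.95% of CGE interneurons and 56.5% of microglia, but in 0.386% of IPCs.

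**Figure D4:**
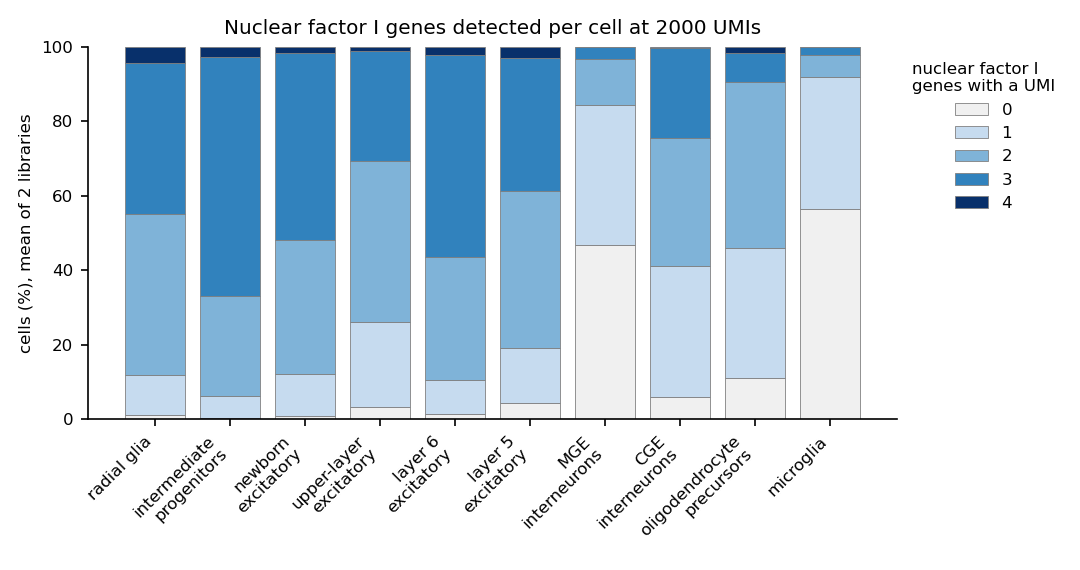
Share of cells (vertical axis, %, mean of 2 libraries) with a UMI of 0, 1, 2, 3 or 4 nuclear factor I genes (light to dark) in the 9 cell classes and in microglia, with every cell thinned to 2000 UMIs. MGE interneurons and microglia have the largest shares of cells with 0.

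Across the 9 classes, log2 levels of Nfib and Nfix went together with a Pearson r of 0.90 (0.90 and 0.89 within the libraries), while those of the other pairs ranged from -0.16 for Nfix and Zbtb20 to 0.57 for Nfia and Nfib. These coefficients describe 9 classes that share libraries and depth, with no test. The gene with the most similar pattern among 5749 compared was Bnip2 for Nfia (r of 0.92), Prkra for Nfib (0.89), Sfrp1 for Nfic (0.96) and Abca1 for Zbtb20 (0.92). Bnip2 ranged only from 47.1 to 64.9 CPM, whereas Abca1, a cholesterol transporter gene, ranged from 4.14 to 119 CPM and Sfrp1, which encodes a secreted Wnt antagonist, from 14.2 to 491 CPM. Meis2, the homeobox gene given above for its level in CGE interneurons, was the second gene for Nfib (0.88).

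A list of 18 genes linked to these factors, 10 gliogenic, 5 of progenitors and 3 of neurons, was chosen with earlier results of these data known. The counts from it are therefore descriptions. Between RGCs and IPCs 15 were tested and all 15 passed, 11 higher in RGCs and 4 lower, where 46.8% of all genes passed. Of the 11, Zcchc24, Aldh1l1, Aqp4, Bcan and Hes1 had too few counts for the test between newborn neurons and IPCs. They entered this test through their RGC counts, so their call as higher in RGCs was not independent of their entry. The share over all genes is no even measure for them. The astrocyte gene Aldh1l1 (log2 difference 6.42), the glial transcription factor gene Sox9 (3.91) and the Notch effector Hes1 (7.22) were far higher in RGCs, while Mmd2, a gene that Nfia is known to turn on, was 0.91 higher. Gfap, S100b and Insc were not tested for low counts. Ezh2, a histone methyltransferase gene that nuclear factor I proteins are known to repress, was lower in RGCs than in IPCs (-0.54, adjusted p = 0.00352), the same direction as Nfib and Nfix. Pou3f2, which Zbtb20 is known to repress, was lower in RGCs too (-1.08, adjusted p = 6.04e-05).

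Elsewhere the list gave fewer calls. From IPCs to newborn neurons 1 of 10 tested rose, Cntn2, and 4 fell, among them Mmd2 and Apcdd1. Between upper-layer and newborn neurons 1 rose and 4 fell of 11. Layer 6 neurons exceeded upper-layer neurons in 3 of 11, among them Apcdd1, another gene that Nfia is known to turn on (3.31, adjusted p = 0.000176), and were lower in 2. Against layer 5 neurons only Apcdd1 passed of 8 (2.18, adjusted p = 0.0143). MGE interneurons were lower than CGE interneurons in 3 of 9, Sox9 (-2.14, adjusted p = 0.000382), Slc1a2 and Cdh2, and higher in none.

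Interneurons were higher than layer excitatory neurons in 4 of 11 and lower in 4. Oligodendrocyte precursors were higher than RGCs in 3 of 15, S100b, Bcan and Zcchc24, and lower in 7. S100b had too few counts for the test between RGCs and IPCs and entered here through the precursors, so its call was not independent of its entry. In cycling RGCs 5 of the 13 tested were lower than in non-cycling RGCs, all gliogenic (Mmd2, Aldh1l1, Aqp4, Slc1a2 and Bcan), and Ezh2 was higher (1.65, adjusted p = 2.15e-05). These counts stand beside the shares of all genes that passed, given above for each comparison.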

How the data were processed

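Dissociated cells of E16.5 mouse dorsal telencephalon had been sequenced with 10x Genomics 3′ version 3.1 chemistry. The deposited values were raw UMI counts per gene and cell, which the authors had made with Cell Ranger 7.0.0 on mm10 per the submitters' processing notes. Whether intronic reads were counted was not given in the sources used here, and transcript lengths were not corrected for, so that levels were not compared between genes.

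A cell passed when its UMI total lay between 1500 and 60000 and the mitochondrial share was below 10% (8139 and 8209 of the deposited cells), and 920 and 857 likely doublets were left out with Scrublet in scanpy 1.11.5, at an expected rate of 0.8% per 1000 cells. A cell entered a gate when it had UMIs of a set number of the gate's markers (from 2 of 5 for interneurons to 4 of 7 for radial glia) and few of the other classes' markers. Counts were summed per gate and library, since cells are not replicates. Sums reached from 322586 UMIs (oligodendrocyte precursors, WT replicate 1) to 8860709 UMIs (upper-layer neurons, WT replicate 6). Each comparison of gates was fitted alone, 2 sums against 2, with edgeR 4.0.16 (filterByExpr, TMM, quasi-likelihood F test, Benjamini-Hochberg adjustment) in R 4.3.3. The SE was obtained from the log2 difference and its F statistic. Within-library differences used a prior count of 0.5. The fit was tested on simulated data.

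The members and the lists of linked genes were chosen with earlier results of these data known. For each member the 3 genes with the highest Pearson r of log2(CPM + 10) over 9 gates were identified, among genes with at least 50 CPM in 1 gate, leaving out members and gate markers. For detection, cells were thinned to 2000 UMIs. Sums of the same library come from the same tissue, and their deviations from the gate means correlated with an r of 0.0983 to 0.293, so the library was also fitted as a block. The other alternatives were DESeq2 1.42.0, no filter on low counts, no TMM scaling, all gates in a single fit, doublets kept, stricter cell limits (3000 to 30000 UMIs, under 5% mitochondrial), 1 more marker per gate, and each library left out. Leaving out cells with choroid plexus or LGE genes was added after the data had been seen. Some results are not reported here.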

Additional observations from a re-analysis of the deposited data

How the results depend on the processing

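With DESeq2 fewer genes passed: 3580 between RGCs and IPCs, 1838 between newborn neurons and IPCs, 1225 between upper-layer and newborn neurons, 183 between layers 6 and 5, 538 between MGE and CGE interneurons, 3894 between interneurons and excitatory neurons, 976 in oligodendrocyte precursors and 739 between cycling and non-cycling RGCs. Against 349 genes between layers 6 and 5, 620 passed without a filter on low counts and 204 with stricter cell limits. Needing 1 more marker per gate gave 1941 between newborn neurons and IPCs, and leaving out cells that carried LGE genes gave 539 between MGE and CGE interneurons. The library as a replicate block gave 865 genes between layers 6 and 5 and 1653 between MGE and CGE interneurons. It made Nfia between RGCs and IPCs (-0.16), Nfib between newborn neurons and IPCs (0.14), Nfix between upper-layer and newborn neurons (-0.21), Zbtb20 between MGE and CGE interneurons (-0.19) and Nfic between interneurons and excitatory neurons (-0.44) pass, and changed no other call of the 5 genes.

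With 1 more marker per gate, Nfib in newborn neurons (0.56), Nfix in upper-layer neurons (-0.47) and Nfia in oligodendrocyte precursors (-1.11) passed. The sign turned for Zbtb20 between RGCs and IPCs (-0.061), Nfic between newborn neurons and IPCs (0.33), Nfix (0.12) and Zbtb20 (-0.50) between layer 6 and upper-layer neurons and Nfix between layers 6 and 5 (0.033), none of which passed there, and Nfic between layers 6 and 5 was filtered out. Nfix between newborn neurons and IPCs turned without TMM scaling (-0.046) and with stricter cell limits (-0.013). Nfic between layer 6 and upper-layer neurons turned without a filter on low counts (-0.0090), with doublets kept (-0.020) and with stricter cell limits (-0.025). Leaving out cells that carried LGE genes, chosen after seeing the data, turned Zbtb20 between MGE and CGE interneurons (0.28).

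Nfib between layers 6 and 5 did not pass with DESeq2 (0.59) or stricter cell limits (0.56), nor did Nfic in oligodendrocyte precursors with DESeq2 (-1.49). Nfia in oligodendrocyte precursors (-0.49) and Zbtb20 in cycling RGCs (-0.49) passed with all gates in a single fit, Zbtb20 also with stricter cell limits (-0.50), and Nfic in interneurons without a filter on low counts (-0.53). The cause of these changes was not tested. Leaving out a library left 1 sum per gate and no test. The sign then differed between the libraries for Zbtb20 between RGCs and IPCs (0.12 and -0.0047), for Nfix (-0.14 and 0.16) and Nfic (0.21 and -0.52) between newborn neurons and IPCs, and for Nfic between upper-layer and newborn neurons (-0.51 and 0.12), layer 6 and upper-layer neurons (-0.06 and 0.23) and layers 6 and 5 (-0.15 and 0.51), none of which had passed. All 45 detection shares moved by more than the spread between libraries when cells were not thinned. Nfic was limited by its low counts, and layer 6, layer 5 and oligodendrocyte precursor sums by their few cells.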

Other observations

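Cells of other classes, which entered no comparison, also carried these genes. Cajal-Retzius cells, early-born neurons of the outermost layer, had 1018 and 949 CPM of Nfia, 2003 and 1865 CPM of Nfib, 596 and 659 CPM of Nfix and 1064 and 781 CPM of Zbtb20. Their Zbtb20 lay above that of upper-layer, layer 5 and layer 6 neurons in both libraries. Fibroblasts had 649 and 545 CPM of Nfia and 92.8 and 111 CPM of Nfic. Endothelial cells had 89.4 and 92.9 CPM of Nfic, so that in both classes each library's Nfic value lay above both RGC values. Mural cells of vessels had 526 and 519 CPM of Nfia but 41.2 and 34.9 CPM of Nfix. These values are descriptions, without a test.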
